A study of Mus musculus with 48 samples.

Results

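Livers of mice that had lost Bmal1 as adults were compared with livers of control littermates at a single circadian time, ZT16, that is 16 h after the time at which the lights used to come on. Of the 48 RNA-seq libraries of the series, 8 belonged to this time, 4 from Bmal1 knockout (KO) mice numbered 25, 26, 30 and 31 and 4 from control (WT) mice numbered 27, 28, 29 and 32. The KO mice carried floxed Bmal1 alleles and EsrCre, a tamoxifen-inducible Cre recombinase active in all tissues, while the WT mice carried the same floxed alleles without Cre. Mice of both genotypes were C57BL/6 males of 4 to 6 months, received tamoxifen by gavage at 5 mg per day for 5 days, and were moved 7 days later into constant darkness for 36 h before liver was collected every 4 h. Loss of Bmal1 and presence of an active Cre cannot be told apart in this design, since no Cre-positive mouse with intact Bmal1 was among the samples, and the loss affects every tissue of the mouse and not hepatocytes alone. The other 40 libraries, 4 per genotype at ZT0, ZT4, ZT8, ZT12 and ZT20, served to estimate the spread and to ask whether a difference was particular to ZT16.

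BMAL1 (gene Arntl) pairs with CLOCK or NPAS2 to switch on genes through E-box sequences. Among its targets are the Per and Cry genes, whose proteins block the activator, and Nr1d1 and Nr1d2, whose proteins REV-ERBα and REV-ERBβ silence Arntl, Npas2 and other genes through RORE sequences. In liver this loop times the use of nutrients, detoxification and protein handling over the day, and feeding adds a timing signal of its own. ZT16 lies in the night, when mice usually feed.

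The 8 libraries held 33562272 to 33852930 counts each, and 14836 of 23732 genes, which took 99.975% of all counts, had enough counts to be tested. Hepatocyte markers (among them Alb and Apob) summed to 25530 to 30320 CPM (counts scaled to the library total) in KO livers and 25810 to 30010 CPM in WT livers, so the labelled tissue was plain in all 8 libraries. Among WT mice, mouse 29 stood apart: 108 genes lay more than 2-fold above and 57 more than 2-fold below the median of the other 3 WT mice. The other WT mice had 23 to 33 and 18 to 35 such genes. KO mouse 30 came next, with 82 genes above and 62 below the median of the other 3 KO mice, and KO mouse 26 had 60 and 41. These counts are over 10355 genes with at least 5 CPM. Of these 8 mice, WT mouse 29 and KO mouse 30 were also the only ones of different genotype that shared a cage. Body weight was 28.25 ± 0.5 g in KO mice and 30.75 ± 2.63 g in WT mice (SD, n = 4 each), a difference of -2.5 g that did not pass an exact two-sided permutation test (p = 0.257, where 4 against 4 allows 0.0286 at the smallest). The targeted gene itself is no check of the labels here, since counts were taken over the whole of Arntl: they were 16.8, 6.93, 23.3 and 18.6 CPM in the KO mice and 20.9, 36.6, 33.8 and 33.7 CPM in the WT mice, and the groups overlapped (log2 fold change -0.93 ± 0.47 SE, adjusted p = 0.27). Per-mouse values are given throughout in the order KO 25, 26, 30 and 31, and WT 27, 28, 29 and 32, as CPM scaled with trimmed means (TMM). Fold changes are KO over WT, and adjusted p values come from edgeR's quasi-likelihood test with Benjamini-Hochberg adjustment over all genes tested.

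At ZT16, 796 genes differed between KO and WT livers at an adjusted p under 0.05, which is 5.37% of the genes tested. Of these, 385 were higher (2.60%) and 411 lower (2.77%) in KO livers. With scaling to total counts alone the split was 566 higher and 304 lower of 870. Most differences were moderate: the called genes had a median absolute log2 fold change of 0.515, and only 54 of the higher and 77 of the lower genes differed by 2-fold or more. In 705 of the called genes the 4 KO values and the 4 WT values did not overlap, a pattern that 14.5% of all tested genes showed (7.02% with the KO values above and 7.49% with them below). The same test called 1737 genes at ZT12 (11.7%), 1167 at ZT8 (7.87%), 563 at ZT4 (3.79%), 249 at ZT0 (1.68%) and 156 at ZT20 (1.05%).

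The genes called at ZT16 often went the other way in the subjective day. At ZT0, ZT4 and ZT8, 72.7%, 76.6% and 73.9% of them had a KO over WT fold change of opposite sign, whatever its p, against 56.9%, 57.3% and 57.5% of all tested genes. Of the 796 genes, 120 were also called at ZT4, 114 of them with the opposite sign, and 186 were also called at ZT8, 157 with the opposite sign. These shared genes made up 15.1% of the ZT16 calls and 21.3% of the ZT4 calls, and 23.4% of the ZT16 calls and 15.9% of the ZT8 calls. At the neighbouring times the signs matched more often: 119 of 157 genes called at both ZT16 and ZT12, and all 48 called at both ZT16 and ZT20, had the same sign. Over all 796 genes, 41.7% had the opposite sign at ZT12, whatever its p, against 48.3% of all tested genes. At ZT20 these shares were 19.8% and 40.8%. No other time called 436 of the 796 genes. When the KO minus WT difference at ZT16 was tested against the mean of the other 5 differences, 1254 genes passed (8.45%), 592 with a more positive value at ZT16 (3.99%) and 662 with a more negative one (4.46%). Of the 618 genes that passed both tests, 513 had a mean difference of opposite sign at the other times. The second test favours genes whose other differences were small or of opposite sign, so this share is partly set by the selection. The other 178 genes called at ZT16 did not pass the test against the other times.

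How many genes were called depended on single mice of both genotypes. Without WT mouse 29 the count was 398 of 14971 genes tested (2.66%), 196 higher (1.31%) and 202 lower (1.35%) in KO livers. It was 306 without KO mouse 25, 447 without KO mouse 31 and 493 without WT mouse 28, and 580 to 696 without any of the other 4 mice. Of the 796 genes, 369 were called both with and without WT mouse 29 and none of them changed sign. Of the 427 called only with it, 418 still had an unadjusted p under 0.05 without it, and the median ratio of the fold change (log2) without it to that with it was 0.91. A further 29 genes were called only without it.

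WT mouse 29 had the pattern of an acute phase response, the programme by which hepatocytes secrete inflammation proteins after infection or injury. Over 33 tested acute phase genes the counts summed to 66200, 72070, 66620 and 52330 CPM in the KO mice and 48270, 49290, 124900 and 50000 CPM in the WT mice, so mouse 29 was above all 7 others. This mouse was singled out for these counts, so fold changes of acute phase genes without it mostly move upward by construction and are given as a description. It was the highest of the 8 mice for 27 of the 33 genes and exceeded the median of the other 3 WT mice by at least 2-fold for 20, with a median ratio of 2.84.

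Saa2, which encodes serum amyloid A2, had 64.6, 119, 84.1 and 22 CPM in the KO mice and 62.8, 44.5, 8770 and 65.3 CPM in the WT mice. Mouse 29 alone was high, 140-fold above the median of its group, and the other 7 mice overlapped. With all 8 mice Saa2 was called lower in KO livers (log2 fold change -4.95 ± 1.44, adjusted p = 0.0342), and without mouse 29 the sign turned (0.34, adjusted p = 0.925). The call was also lost without any 1 of the 4 KO mice, with DESeq2, with limma-voom and cage as a random block, and with only the ZT16 libraries. Its close relative Saa1, with which it may share reads, had 89.8 to 416 CPM in KO mice, against 8151 CPM in mouse 29 and 163 to 181 CPM in the other WT mice. The 3 fibrinogen chains Fga, Fgb and Fgg, the neutrophil lipocalin Lcn2, the orosomucoid Orm2 and Socs3, a brake on cytokine signalling, also had their highest value in mouse 29. Hamp, which encodes the iron hormone hepcidin, did not follow, with 431, 328, 168 and 422 CPM in KO mice and 772, 581, 754 and 196 CPM in WT mice. Neutrophil markers summed to 45.55 CPM in WT mouse 29 and 32.35 CPM in KO mouse 30, and to 7.37 to 14.6 CPM in the other 6 mice. Their part in these results was not tested.

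Metallothioneins, small proteins that bind zinc and copper and are on the acute phase list, were also highest in that mouse. Mt1 had 79.9, 126, 234 and 125 CPM in the KO mice and 15.7, 13.4, 532 and 24.5 CPM in the WT mice, and Mt2 had 58.2, 91.2, 218 and 99.8 CPM in the KO mice and 5.11, 4.92, 523 and 14 CPM in the WT mice. All 4 KO mice lay above 3 WT mice and below mouse 29 for both genes. With all 8 mice neither was called (Mt1 log2 fold change -0.05, adjusted p = 0.985; Mt2 -0.23, adjusted p = 0.941). Without mouse 29 both were called higher in KO livers, with log2 fold changes of 2.99 for Mt1 (adjusted p = 0.0232) and 3.87 for Mt2 (adjusted p = 0.0249). The acute phase genes Lbp (lipopolysaccharide binding protein) and Cp (ceruloplasmin, a copper-carrying oxidase) were also highest in it among WT mice. Lbp had 308, 299.6, 251 and 237 CPM in KO mice and 131, 111, 339 and 119 CPM in WT mice, and was called higher in KO livers only without mouse 29 (log2 fold change 1.19, adjusted p = 0.00772, against 0.65 and 0.178 with all 8 mice). Cp had 2222 to 2977 CPM in KO mice and 2413 CPM in mouse 29, against 1564 to 1701 CPM in the other WT mice, and was called without that mouse (0.70, adjusted p = 0.0234) but not with it (0.54, adjusted p = 0.0563). With all 8 mice Cp did pass in 4 of 11 alternative fits, among them DESeq2 (adjusted p = 0.0287). Across the 33 genes the median log2 fold change was -0.23 with mouse 29 and 0.42 without it, beside -0.0037 and 0.011 over all tested genes, and the calls were 1 lower with it and 4 higher without it. That shift follows from the choice of the mouse and is no separate result.

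**Figure D1:**
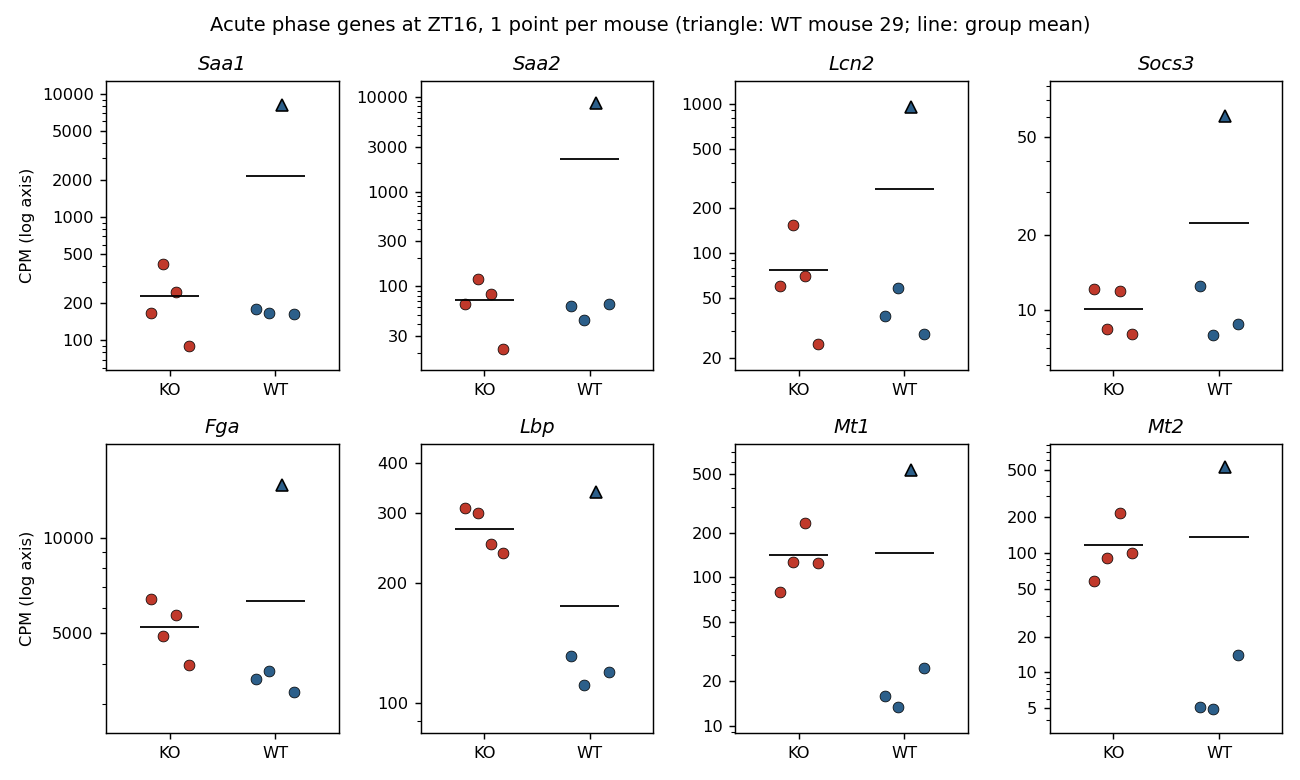
CPM of acute phase genes and metallothioneins in each ZT16 mouse on a log axis, KO mice left of WT mice, with lines at the group means and WT mouse 29 as a triangle. Mouse 29 stands far above the other WT mice for Saa1, Saa2, Lcn2, Mt1 and Mt2, while the 4 KO mice have Mt1 and Mt2 values between those of mouse 29 and the other 3 WT mice.

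Slc37a1, a glucose-6-phosphate transporter, and Map3k14, the kinase NIK of the NF-κB pathway, had their highest WT value in mouse 29, and were named because their call depends on it. Slc37a1 had 6.95, 6.03, 5.53 and 3.99 CPM in KO mice and 1.70, 2.4, 12.8 and 2.24 CPM in WT mice, and Map3k14 had 10.1, 7.16, 9.51 and 7.54 CPM in KO mice and 5.91, 5.39, 9.96 and 5.32 CPM in WT mice. Without mouse 29 both were higher in KO livers (log2 fold change 1.41, adjusted p = 0.00682 for Slc37a1, and 0.64, adjusted p = 0.00822 for Map3k14), and with it neither passed (0.24 and 0.805; 0.37 and 0.153). Other genes were low in that mouse. Cyp8b1, the sterol 12α-hydroxylase that decides whether cholic acid is made, had 143, 84.7, 115 and 91.1 CPM in KO mice and 266, 296, 80.6 and 397 CPM in WT mice. Agxt2l1, an enzyme that breaks down phosphoethanolamine, had 74.7, 69.5, 71.5 and 128 CPM in KO mice and 199.7, 232, 41.8 and 204 CPM in WT mice. For both genes 3 WT mice lay above every KO mouse and mouse 29 below them all. Both were called lower in KO livers without mouse 29 (-1.56, adjusted p = 0.0315, and -1.30, adjusted p = 0.0433) and not with it (-1.26 and 0.0679; -0.98 and 0.137). With all 8 mice Cyp8b1 did pass with DESeq2 (adjusted p = 0.0381) and with body weight as a covariate (adjusted p = 0.0373). Acot1, an acyl-CoA thioesterase with close paralogs, and Sucnr1, the succinate receptor, passed only without mouse 29 as well, by a narrow margin (-1.15 and -0.79 on the log2 scale, adjusted p = 0.0495 for each).

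Some clock genes differed at ZT16, and the largest difference among them was in Nr1d1. Of 16 tested genes of the E-box list, 2 were higher (Nr1d1 and Nr1d2) and 2 lower (Cry2 among them) in KO livers, beside 2.60% and 2.77% of all tested genes, with a median log2 fold change of -0.091. The E-box CACGTG was in the RefSeq promoters (GRCm38.p6, 300 bases around the start) of 5 of 12 members that had one, none of them among the 3 of these that were called. It was in 7.15% of all such promoters, and in those of 8.09% of genes. The members were listed as E-box targets, so their share is no independent result. Nr1d1 (chr11:98629246-98636647 in the mm9 build) had 43.7, 37.9, 4.91 and 15.9 CPM in the KO mice and 2.25, 2.52, 1.32 and 3.38 CPM in the WT mice. The groups did not overlap, although KO mouse 30 came close to the WT range (log2 fold change 3.43 ± 0.73, adjusted p = 0.00403). Its call held without each single mouse, and was lost only with limma-voom and cage as a random block (adjusted p = 0.0879). The KO means of Nr1d1 lay between 13.3 and 37.3 CPM over the 6 times, whereas the WT mean was 135 CPM at ZT4 and lowest, at 2.37 CPM, at ZT16. Its KO minus WT difference was thus more positive at ZT16 than the mean of the other times by 4.01 ± 0.79 on the log2 scale (adjusted p = 0.00104).

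Nr1d2 had 55.4, 111, 20.4 and 42 CPM in KO mice and 20.4, 24.8, 17.2 and 28.5 CPM in WT mice. Only KO mouse 30 lay among the WT mice (1.33 ± 0.35, adjusted p = 0.0195). Its call was lost without KO mouse 26, WT mouse 27 or WT mouse 29 (adjusted p = 0.0778 without mouse 29 and up to 0.195), and also with limma-voom and cage as a random block and with only the ZT16 libraries. Cry2, a repressor of the activator pair, showed the tightest difference of the clock genes, with 35.3, 41.5, 43.4 and 37.9 CPM in KO mice and 55.4, 59.2, 51.0 and 58.3 CPM in WT mice. The groups were well separated (-0.50 ± 0.10, adjusted p = 0.00265), and the call held without each single mouse.

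Per2 and Cry1, the other repressors with all KO mice below all WT mice, did not pass the test. Per2 had 24.1, 46.8, 24.4 and 20.2 CPM in KO mice and 61.8, 61.7, 59.3 and 59.7 CPM in WT mice (-1.07 ± 0.39, adjusted p = 0.1), and Cry1 had 22.4, 16.4, 48.9 and 30.1 CPM in KO mice and 54.1, 59.0, 53.4 and 51.4 CPM in WT mice (-0.89 ± 0.38, adjusted p = 0.167). KO mice spread widely in both genes while WT mice nearly coincided. Per2 did pass with limma-voom and cage as a random block (adjusted p = 0.0488) and with only the ZT16 libraries (adjusted p = 0.0263), and Cry1 passed in none of the 11 alternative fits with all 8 mice. Both differences were more negative at ZT16 than the mean of the other times. On the log2 scale the gap was -1.71 for Per2 (adjusted p = 0.00974) and -1.29 for Cry1 (adjusted p = 0.0423). A neighbouring time was much like ZT16 in each gene. Per2 means were 28.9 CPM in KO and 60.6 CPM in WT livers at ZT16, and 33.8 and 75.7 CPM at ZT12. Cry1 means were 29.4 CPM in KO and 54.5 CPM in WT livers at ZT16, and 30.4 and 55.8 CPM at ZT20. Per1, Per3 and Clock had overlapping values and log2 fold changes of 0.11, -0.12 and -0.07. Dbp, an E-box target that drives output genes, had 9.57, 43.5, 2.62 and 3.93 CPM in KO mice and 2.33 to 3.93 CPM in WT mice, so only 2 KO mice were above the WT range (2.16 ± 0.84, adjusted p = 0.126).

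Npas2 is the partner of BMAL1 that REV-ERB silences. It was the one called gene among 5 RORE targets (median log2 fold change -0.61), beside 2.60% of all tested genes called higher. It had 7.12, 3.28, 20.0 and 8.89 CPM in KO mice and 2.19, 1.77, 3.05 and 1.69 CPM in WT mice. Every KO mouse was above every WT mouse (2.17 ± 0.60, adjusted p = 0.0255), and without KO mouse 30 or WT mouse 27, 28 or 32 the call was lost (adjusted p up to 0.139), as it was with limma-voom and cage as a random block. The log2 fold change lay within 1.57 to 2.46 over all 8 fits that each left out 1 mouse. KO mouse 30, the lowest KO mouse for Nr1d1 and Nr1d2, was the highest for Npas2. Of 13 further clock genes only Timeless was called (lower, -0.71 ± 0.20, adjusted p = 0.0246), beside 2.77% of all tested genes called lower. It had 5.42, 5.46, 4.97 and 6.05 CPM in KO mice and 9.50, 6.77, 9.84 and 9.79 CPM in WT mice. That call held in only 2 of the 8 fits without 1 mouse, those without KO mouse 31 or WT mouse 28 (adjusted p = 0.0827 without WT mouse 29).

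**Figure D2:**
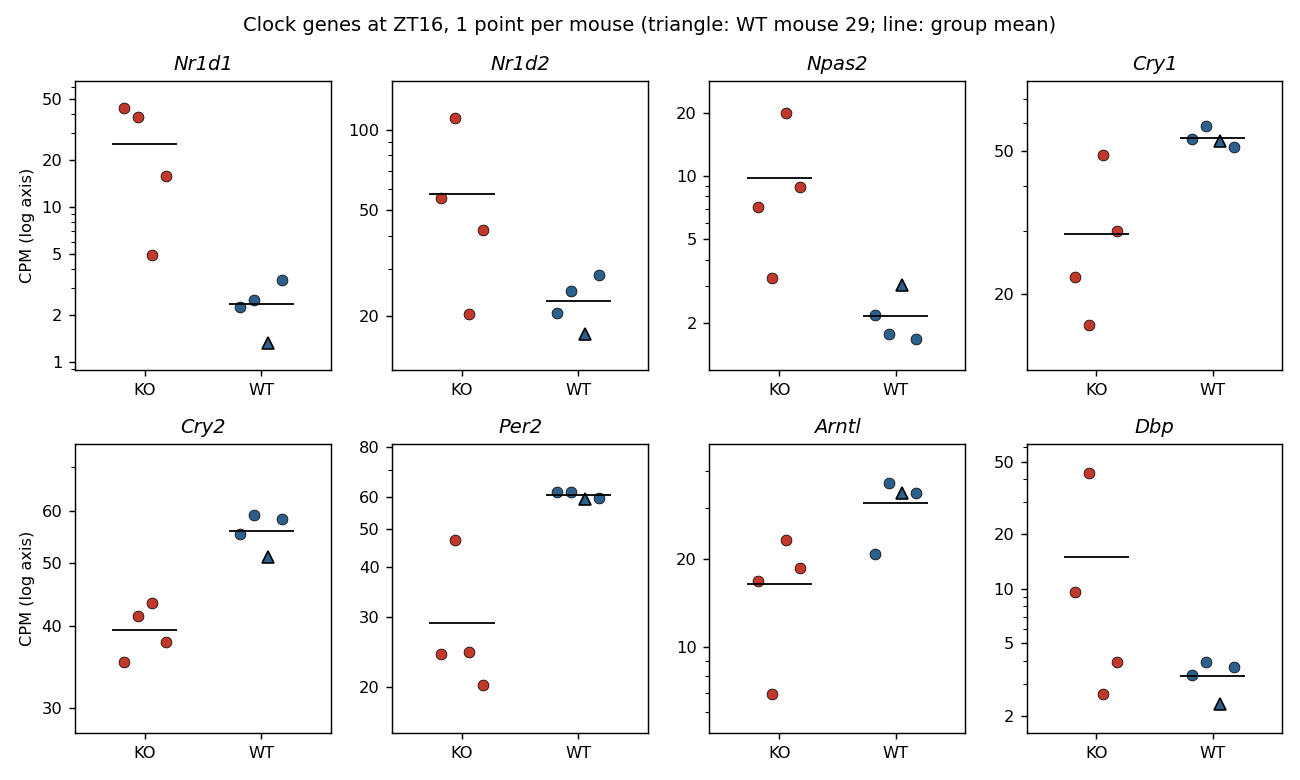
CPM of clock genes in each ZT16 mouse on a log axis, KO mice left of WT mice, with lines at the group means and WT mouse 29 as a triangle. Nr1d1 and Npas2 have all 4 KO mice above all 4 WT mice, Cry1, Cry2 and Per2 have them below, and the KO mice spread more widely than the WT mice for Nr1d1, Dbp and Per2.

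The 10 genes with the smallest p for ZT16 against the other times (at least 5 CPM) included several that handle RNA and 1 metabolic enzyme. Odc1, ornithine decarboxylase, the entry enzyme of polyamine synthesis (chr12:17551679-17558308), had 66.1, 74.4, 81.2 and 78.8 CPM in KO mice and 161, 192, 180.4 and 159 CPM in WT mice. The KO values were below all WT values with little spread (-1.20 ± 0.15, adjusted p = 2.34e-06). KO means of Odc1 lay between 75.1 and 104 CPM at the 6 times, with ZT16 the lowest, and the WT mean was highest at ZT16, 173 CPM against 53.8 CPM at ZT4. The ZT16 difference was more negative than the mean of the others by -1.39 ± 0.16 (log2, adjusted p = 5.21e-07).

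Dcaf6, a substrate adaptor of the CUL4 ubiquitin ligase (chr1:167259642-167390596), showed the reverse. It had 62.2, 57.6, 46.5 and 58.5 CPM in KO mice and 30.8, 28.8, 24.7 and 28.7 CPM in WT mice, with no overlap (0.99 ± 0.12, adjusted p = 2.34e-06). KO means of Dcaf6 were 46.5 to 56.2 CPM over the 6 times, and the WT mean was lowest at ZT16, 28.2 CPM, and highest at ZT8, 62.5 CPM.

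Hnrnpl, a splicing regulator that binds CA-rich RNA (chr7:29593560-29607285), had 97.4, 94.3, 84.4 and 87.2 CPM in KO mice and 62.4, 65.8, 65.6 and 64.0 CPM in WT mice (0.49 ± 0.07, adjusted p = 3.78e-05). Thrap3, a protein of splicing complexes, had 91.4, 80.6, 79.0 and 78.1 CPM in KO mice and 55.7, 67.6, 58.6 and 53.2 CPM in WT mice (0.49 ± 0.08, adjusted p = 0.000223). Hnrnpc, which coats nascent transcripts, went the other way, with 84.1, 93.8, 105 and 90.9 CPM in KO mice and 121, 136, 136 and 120.5 CPM in WT mice (-0.46 ± 0.08, adjusted p = 0.000413). In all 3 genes the groups were apart, and the KO means changed little over the day while the WT means moved. The KO means of Hnrnpl were 84.8 to 91.7 CPM, and its WT mean was 118 CPM at ZT4 and 64.5 CPM at ZT16. The KO means of Hnrnpc were 86.7 to 102 CPM and its WT mean was 69.2 CPM at ZT8 and 128 CPM at ZT16. Ncbp2, the small subunit of the nuclear cap-binding complex, was lower in KO livers (-0.51 ± 0.08, adjusted p = 0.000129), with 24.6 to 28.1 CPM in KO mice and 32.5 to 40.8 CPM in WT mice.

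Otud5, a deubiquitinase, was higher in KO livers (0.43 ± 0.07, adjusted p = 0.000133), with 39.6 to 47.6 CPM in KO mice and 29.0 to 33.3 CPM in WT mice. Fgfr2, a receptor for fibroblast growth factors, had 41.5 to 47 CPM in KO mice and 25.3 to 30.7 CPM in WT mice (0.62 ± 0.13, adjusted p = 0.00248). Its deposited coordinates, chr7:137305965-140315033, span far more than 1 gene of usual length, so reads of other genes may be in its count. Lrit1 was higher (0.84 ± 0.17, adjusted p = 0.00259) and D2Wsu81e lower (-0.66 ± 0.10, adjusted p = 0.000124) in KO livers. All 10 genes were called at ZT16, kept that call without each of the 8 mice in turn, and had a ZT16 difference of opposite sign to the mean of the other times. Their choice by the contrast with the other times favours such opposite signs, which are given as a description. Without WT mouse 29 their log2 fold changes at ZT16 ranged from -1.18 for Odc1 to 0.94 for Dcaf6.

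**Figure D3:**
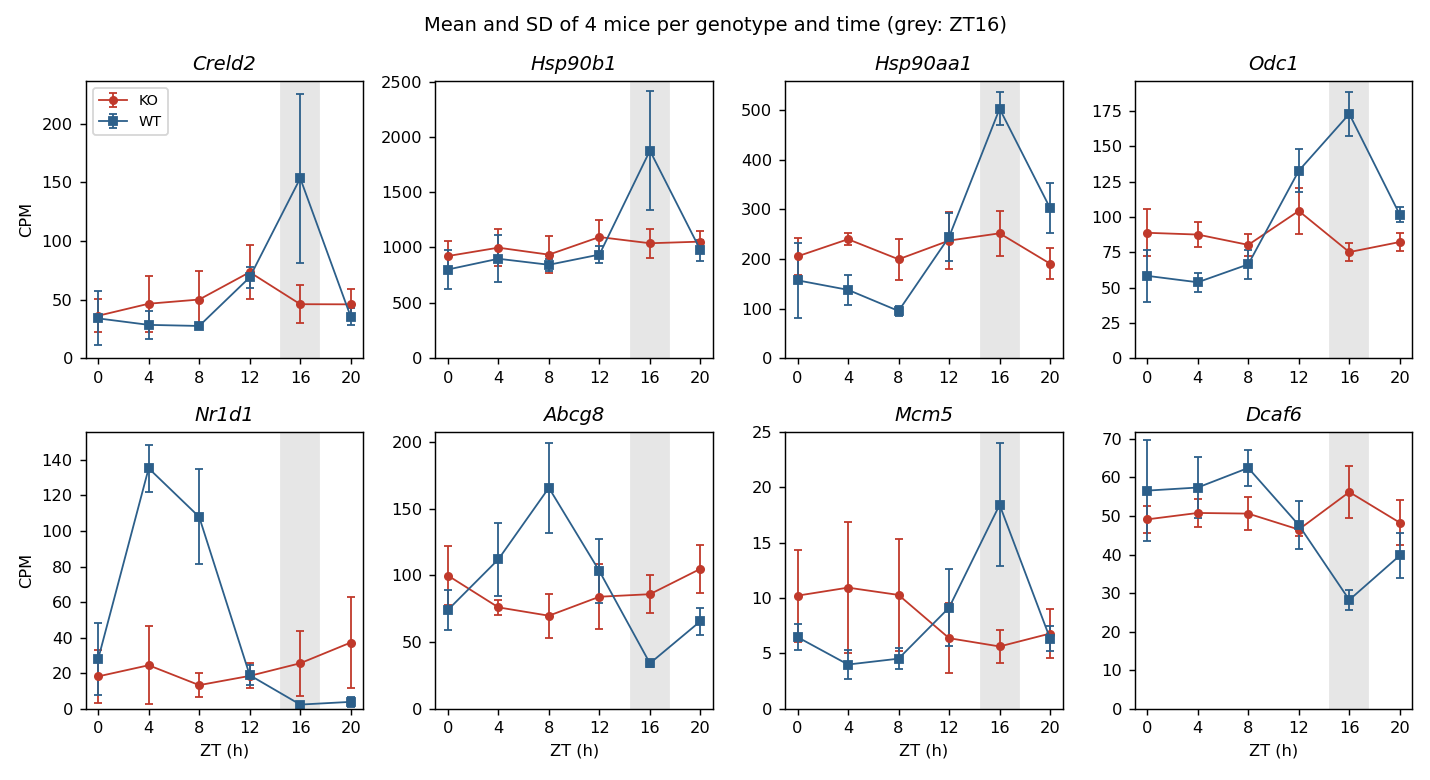
Mean CPM with SD (n = 4 mice) at ZT0 to ZT20 in KO and WT livers for 8 genes, with ZT16 shaded grey. KO means span a narrower range than WT means in all 8 genes. The WT means of Creld2, Hsp90b1, Hsp90aa1, Odc1 and Mcm5 are highest and those of Nr1d1, Abcg8 and Dcaf6 lowest at ZT16.

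Chaperones of the endoplasmic reticulum (ER), which fold secreted proteins and are induced as a set by the unfolded protein response, were lower in KO livers. Of 25 tested genes of this response, 9 were called lower (13 with DESeq2) and none higher, beside 2.77% of all tested genes called lower, and the median log2 fold change was -0.50 beside -0.0037 over all tested genes. All 4 KO values lay below all 4 WT values in 13 of the 25 genes, against 7.49% of all tested genes. Without WT mouse 29, 5 of the 25 were called lower (median -0.47), beside 1.35% of all tested genes, and 5 to 9 were called when each mouse was left out in turn. The KO mean was highest at ZT16 for none of the 25 genes and the WT mean for 15 (60%), against 13.4% and 18.7% of all tested genes. These WT means include mouse 29, and the peaks were not counted without it.

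The response is known to act through ER stress elements, which join a CCAAT box to a CCACG box. RefSeq promoters (GRCm38.p6, from 250 bases before to 50 after the transcription start) were searched on both strands for CCAAT followed after exactly 9 bases by CCACG. The element was in 39 of 32851 promoters (0.119%) and in those of 7 of the 22 members that had one: Hsp90b1, Dnajc3, Pdia6, Creld2 and Syvn1 among 9 called lower, and Hspa5 and Calr among 13 not called. Since members were listed as known targets of this response, the share is no independent result, and a match of letters does not show that a factor bound. The matches of the 5 called genes are given in the direction of transcription, the element in capitals (on the opposite strand it reads CGTGG first), because these genes fell together. Creld2 is given as the whole promoter, Hsp90b1 with both of its elements, and the others with 20 bases on each side.
Creld2, chr15:88819396-88819695, plus strand: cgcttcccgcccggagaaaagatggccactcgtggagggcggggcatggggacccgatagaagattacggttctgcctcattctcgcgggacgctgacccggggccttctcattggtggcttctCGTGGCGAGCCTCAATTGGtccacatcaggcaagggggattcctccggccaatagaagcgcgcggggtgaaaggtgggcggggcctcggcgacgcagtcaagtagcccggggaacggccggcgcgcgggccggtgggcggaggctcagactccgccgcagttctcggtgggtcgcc
Hsp90b1, chr10:86705513-86705676, minus strand: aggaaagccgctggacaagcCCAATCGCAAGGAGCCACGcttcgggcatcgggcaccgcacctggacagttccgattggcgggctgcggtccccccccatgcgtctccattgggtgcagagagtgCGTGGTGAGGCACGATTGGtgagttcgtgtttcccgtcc
Syvn1, chr19:6046512-6046570, plus strand: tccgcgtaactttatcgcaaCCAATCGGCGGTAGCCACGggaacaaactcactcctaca
Dnajc3, chr14:118937807-118937865, plus strand: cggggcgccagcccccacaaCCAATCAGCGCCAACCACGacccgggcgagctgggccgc
Pdia6, chr12:17266471-17266529, plus strand: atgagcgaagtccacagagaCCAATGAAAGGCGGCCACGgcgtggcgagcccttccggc

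Creld2, an ER protein that helps fold disulfide-bonded proteins, had 64.7, 49.3, 44.8 and 25.2 CPM in KO mice and 109, 75.6, 221 and 208 CPM in WT mice. The groups did not overlap, though WT mouse 28 came near KO mouse 25 (-1.74 ± 0.39, adjusted p = 0.006). Creld2 had KO means of 36.1 to 73.3 CPM over the 6 times and a WT mean of 153 CPM at ZT16, against 27.4 to 68.9 CPM in WT livers at the other times. Hsp90b1, the ER-resident HSP90, had 1057, 1179, 1053 and 865 CPM in KO mice and 1558, 1286, 2414 and 2244 CPM in WT mice, again with mouse 28 the lowest WT mouse (-0.85 ± 0.17, adjusted p = 0.00194). Syvn1, the ubiquitin ligase HRD1 that disposes of misfolded ER proteins, had 76.3, 76.0, 93.6 and 57.6 CPM in KO mice and 154, 107, 223 and 256 CPM in WT mice, with no overlap (-1.29 ± 0.27, adjusted p = 0.00313). These 3 genes and the co-chaperones Dnajb11 (-0.72 ± 0.17) and Sdf2l1 (-1.19 ± 0.28) kept their calls without each single mouse, WT mouse 29 included, without which their adjusted p was 0.0156 to 0.0471.

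The other 4 called genes lost the call without WT mouse 29. The disulfide isomerases Pdia3 (-0.53 ± 0.13), Pdia4 (-0.70 ± 0.17) and Pdia6 (-0.55 ± 0.14) and the co-chaperone Dnajc3 (-0.55 ± 0.13) had adjusted p values of 0.00993 to 0.0152 with the mouse and 0.0513 to 0.0672 without it, where the log2 fold changes were -0.47 to -0.56. Pdia3, Pdia4 and Pdia6 lost it without KO mouse 31 too, and Pdia3, Pdia6 and Dnajc3 without KO mouse 25 (adjusted p up to 0.0672 over these fits). Hspa5, the master chaperone BiP, had 1388, 1409, 1184 and 849.7 CPM in KO mice and 1759, 1518, 2409 and 2094 CPM in WT mice. All KO mice were below all WT mice, but the difference did not pass (-0.69 ± 0.23, adjusted p = 0.066). Calr, Hyou1 and Manf were alike, with log2 fold changes of -0.50 to -0.87 and adjusted p of 0.0607 to 0.0688. The ZT16 difference of these 4 genes did differ from the mean of the other times (-0.71 to -1.30 on the log2 scale, adjusted p of 0.0052 to 0.0137). The sensors and factors of the response, Xbp1, Ern1, Eif2ak3 and Atf6, had overlapping groups and log2 fold changes of -0.25 to 0.05. Derl3, part of the ER disposal machinery that was named among the largest falls and is not in the 25-gene list, had 2.50, 2.24, 3.67 and 1.20 CPM in KO mice and 5.51, 4.68, 9.49 and 19.8 CPM in WT mice (-2.04 ± 0.52, adjusted p = 0.0141), a call lost without KO mouse 25, KO mouse 31 or WT mouse 32 (adjusted p up to 0.0969).

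Several chaperones of the cytosol and mitochondria that are induced by heat through HSF1 were also lower. Of 22 tested genes 9 were called lower and none higher, beside 2.77% of all tested genes called lower, the median log2 fold change being -0.37. The other 13 were not called, among them the HSP70 genes Hspa1a, Hspa1b and Hspa8 and the co-chaperone Dnajb1. Without WT mouse 29, 7 were called lower (median -0.37), beside 1.35% of all tested genes. The lowest counts, 5, came without KO mouse 25 and without KO mouse 31. The KO mean was highest at ZT16 for 4 of the 22 genes and the WT mean for 13, against 13.4% and 18.7% of all tested genes. Here too the WT means include mouse 29, and the peaks were not counted without it. Hsp90aa1, the inducible cytosolic HSP90, had 233, 243, 317 and 213 CPM in KO mice and 505, 544, 463 and 498 CPM in WT mice. The groups were far apart (-1.0 ± 0.21, adjusted p = 0.00326). KO means were 190 to 252 CPM over the 6 times, and WT means 503 CPM at ZT16 and 95.1 CPM at ZT8. Hspb1, the small heat shock protein HSP27, had 9.36, 6.00, 15 and 6.77 CPM in KO mice and 20.2, 37.4, 20.5 and 28.1 CPM in WT mice (-1.52 ± 0.32, adjusted p = 0.00403).

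The mitochondrial chaperonin pair is coded by 2 adjoining genes whose deposited coordinates overlap at their ends (Hspd1 at chr1:55134679-55145087 and Hspe1 at chr1:55144976-55148151 in mm9), so a few reads could count for either. Hspe1 had 108, 130.5, 137 and 131 CPM in KO mice and 212, 223, 186 and 172 CPM in WT mice (-0.64 ± 0.12, adjusted p = 0.00133). Hspd1 had 556, 638, 608 and 534 CPM in KO mice and 795, 829, 779.9 and 743 CPM in WT mice (-0.43 ± 0.09, adjusted p = 0.00292). The groups were apart in both genes. Hspa4l, a nucleotide exchange factor for HSP70, was lower as well (-0.73 ± 0.14, adjusted p = 0.00187), and these 3 genes, Hsp90aa1 and Hspb1 kept their calls without each single mouse. The remaining calls, Hsp90ab1 (-0.44), Ahsa1 (-0.40), Chordc1 (-0.56) and Stip1 (-0.54), had adjusted p values of 0.0137 to 0.0273, and each lost the call without KO mouse 25 and without KO mouse 31. Ahsa1 kept it without each of the other 6 mice (adjusted p of 0.0611 at most over all 8 fits), while Hsp90ab1, Chordc1 and Stip1 held it in 2 of the 8 fits without 1 mouse (adjusted p up to 0.106). Without WT mouse 29 the calls of Chordc1 (adjusted p = 0.106) and Stip1 (adjusted p = 0.0548) were lost.

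The heat shock element was searched on both strands as GAA, TTC and GAA with 2 bases between each. It was in 198 of the RefSeq promoters (0.603%), and in those of 0.662% of genes. Of the 17 members that had a promoter, 4 held it: Hspd1, Hspe1 and Chordc1 among 7 called lower, and Hsph1 among 10 not called. Members were listed as known heat shock genes, so their share is no independent result, and a match of letters does not show that a factor bound. The Hspe1 promoter is shown because Hspd1 and Hspe1 both fell, and it holds 2 overlapping matches upstream of the Hspe1 start site. They are in capitals.
Hspe1, chr1:55087898-55088197 (GRCm38.p6), plus strand: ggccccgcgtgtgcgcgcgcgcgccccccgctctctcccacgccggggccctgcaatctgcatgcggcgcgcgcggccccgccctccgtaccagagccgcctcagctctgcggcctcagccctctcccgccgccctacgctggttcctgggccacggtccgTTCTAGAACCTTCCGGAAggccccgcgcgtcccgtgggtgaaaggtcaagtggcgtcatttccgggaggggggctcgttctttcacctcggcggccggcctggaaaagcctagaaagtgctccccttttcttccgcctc

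**Figure D4:**
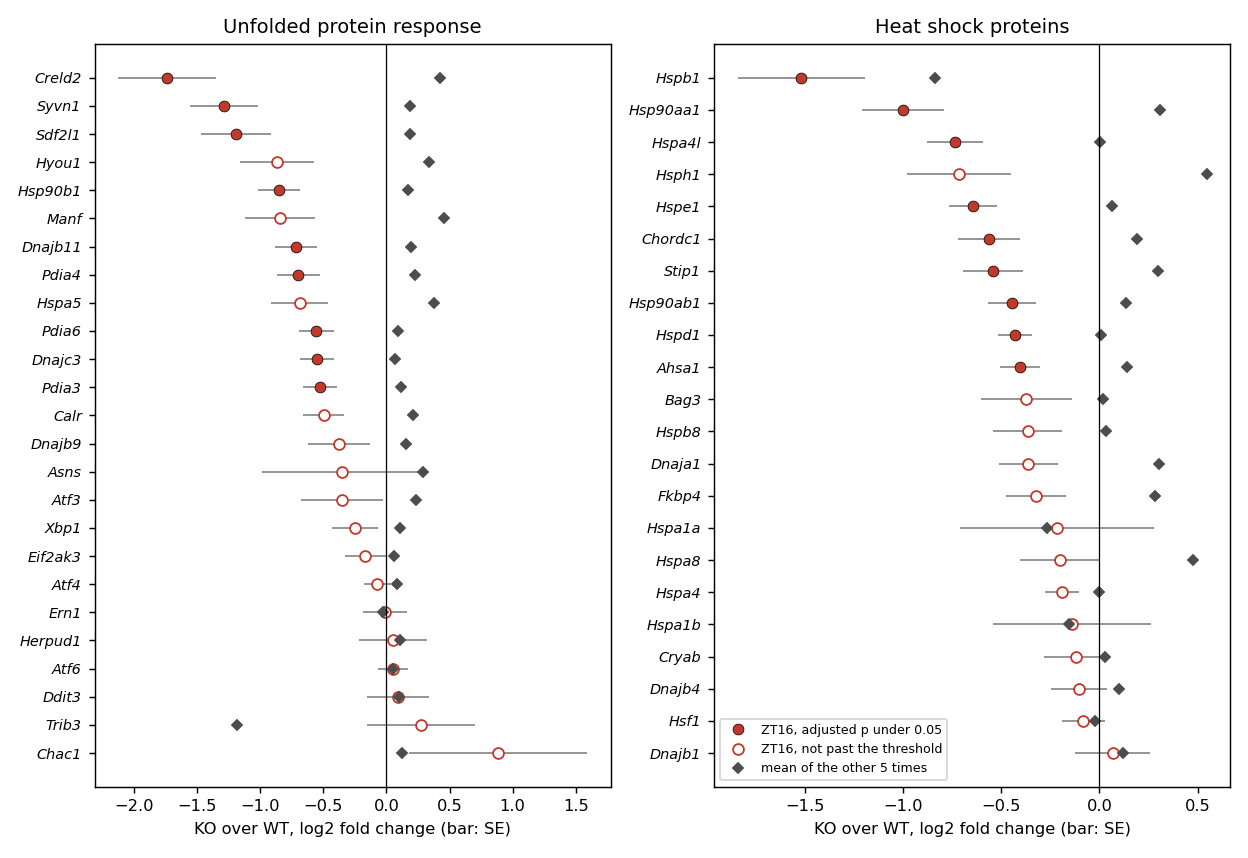
KO over WT log2 fold change (x axis, with SE bars) of each tested gene of the unfolded protein response (left) and of heat shock (right), at ZT16 (circles, filled where called) and as the mean of the other 5 times (diamonds). In each panel the 9 called genes lie below 0, from -1.74 for Creld2 and -1.52 for Hspb1, while most diamonds lie near or above 0.

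Mcm2, Mcm3, Mcm5 and Mcm6, subunits of the helicase that opens DNA for replication, were the only called members of a cell cycle list (4 of 23 tested, all lower in KO livers, beside 2.77% of all tested genes; median log2 fold change -0.17), while Mki67, Top2a and Cdk1 were not called. Mcm5 had 5.59, 7.13, 3.58 and 6.19 CPM in KO mice and 22.9, 10.3, 20.4 and 20.1 CPM in WT mice. WT mouse 28 was nearest the KO mice, without overlap (-1.71 ± 0.36, adjusted p = 0.00351). Mcm6 (-1.27 ± 0.31), Mcm2 (-1.18 ± 0.29) and Mcm3 (-0.86 ± 0.22) had adjusted p values of 0.011 to 0.0168, and in each of them WT mouse 28 was again the lowest WT mouse. Mcm2, Mcm5 and Mcm6 kept their calls without each single mouse, while Mcm3 lost it without KO mouse 25, KO mouse 30 or WT mouse 27 (adjusted p up to 0.0825). The ZT16 difference of all 4 was more negative than the mean of the other times (-1.22 to -2.28, adjusted p of 0.000228 to 0.00129). For Mcm5 the KO means were 5.63 to 10.9 CPM over the 6 times. Its WT mean was 18.4 CPM at ZT16 and 3.99 to 9.13 CPM at the other times.

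Uhrf1, which keeps DNA methylation through replication, had 1.47, 2.75, 1.17 and 1.89 CPM in KO mice and 8.34, 3.66, 4.84 and 7.58 CPM in WT mice (-1.74 ± 0.49, adjusted p = 0.0267), and the call held in 3 of the 8 fits without 1 mouse, those without KO mouse 26, WT mouse 28 or WT mouse 29 (adjusted p up to 0.0935 in the others). Pcna, the sliding clamp, had overlapping groups and did not pass (-0.33 ± 0.12, adjusted p = 0.0856). Tfrc, the transferrin receptor through which dividing and iron-poor cells take up iron, had 44.7, 79.7, 49.3 and 45.9 CPM in KO mice and 145, 149, 135 and 109 CPM in WT mice (-1.29 ± 0.34, adjusted p = 0.0169). It lost the call without KO mouse 25 or 31 (adjusted p up to 0.0726), and was the only call among 26 genes of iron and BMP signalling (median -0.0099), a share no higher than the 5.37% of all tested genes. Erythroid markers, among them the globin genes, summed to 33.7 to 43.03 CPM in KO mice and 42 to 92.56 CPM in WT mice, and their part in the Tfrc and replication results was not tested. In tissue RNA of this kind, fewer cells of a type and less RNA per cell cannot be told apart.

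In sterol and bile acid handling, Abcg8, a subunit of the transporter that exports cholesterol into bile, had the clearest difference. It had 88.8, 75.0, 74.9 and 105 CPM in KO mice and 35.3, 37.4, 31.7 and 31.9 CPM in WT mice, more than 2-fold apart in the means (1.33 ± 0.21, adjusted p = 0.00012). At ZT8 the means were 69.7 CPM in KO livers and 166 CPM in WT livers, the highest WT mean of the 6 times, and the WT mean at ZT16, 34.1 CPM, was the lowest. Abcb11, the bile salt export pump, had 816, 658, 716 and 783 CPM in KO mice and 500.3, 515, 514 and 567 CPM in WT mice (0.50 ± 0.13, adjusted p = 0.0156, and 0.0688 without KO mouse 25). Hsd3b7, an enzyme of bile acid synthesis, was also called (0.50 ± 0.14, adjusted p = 0.0235, and 0.107 without WT mouse 29; lost also without KO mouse 25, 30 or 31 or WT mouse 28), though KO mouse 26 at 406 CPM lay among the WT mice at 324 to 455 CPM. Abcb11 and Hsd3b7 were the 2 calls among 23 bile acid genes (median 0.074), a share near the 5.37% of all tested genes that were called.

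Cholesterol synthesis genes were all lower in the mean, though nearly all missed the test. All 24 tested had a negative log2 fold change, with a median of -0.31, but only Ebp, a sterol isomerase, was called. Ebp had 191, 238, 224 and 232 CPM in KO mice and 334, 291, 323 and 275 CPM in WT mice (-0.47 ± 0.12, adjusted p = 0.0136). It ended at adjusted p = 0.05 without WT mouse 29, and was lost without KO mouse 25 too (adjusted p = 0.0758). Without mouse 29 the median of the list was -0.11. The KO mean was highest at ZT16 for 3 of the 24 genes and the WT mean for 21, against 13.4% and 18.7% of all tested genes. These WT means include mouse 29, and whether the peaks at ZT16 depend on it was not tested.

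Among 30 fatty acid oxidation genes 3 were called, all lower in KO livers, beside 2.77% of all tested genes, with a median log2 fold change of -0.19. Cpt2, the inner carnitine palmitoyltransferase of mitochondria, had 163, 148, 158 and 151 CPM in KO mice and 221, 234, 209 and 219 CPM in WT mice. Both groups were tight and apart (-0.51 ± 0.10, adjusted p = 0.00215), and the call held without each single mouse. Fabp1, the liver fatty acid binding protein, was lower (-0.61 ± 0.16, adjusted p = 0.0223, with the call lost without KO mouse 30, KO mouse 31 or WT mouse 27 at up to 0.0925). Gpam, which starts triglyceride synthesis, had 261, 267, 358 and 244 CPM in KO mice and 442, 449, 479.8 and 436 CPM in WT mice (-0.68 ± 0.19, adjusted p = 0.0286), with an adjusted p of 0.0814 without mouse 29 and of up to 0.0954 without KO mouse 25, 26 or 31 or WT mouse 28. It was the single call among 23 fatty acid synthesis genes (median -0.25), a share near that of all tested genes.

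Glycogen synthase Gys2 was lower, with 117, 146, 143 and 112 CPM in KO mice and 207, 189, 181 and 216 CPM in WT mice (-0.61 ± 0.14, adjusted p = 0.00702). Fbp1, a key enzyme of gluconeogenesis, was also lower (-0.45 ± 0.11, adjusted p = 0.0124), with 812 to 1027 CPM in KO mice and 1178 to 1351 CPM in WT mice. Gckr, which holds glucokinase inactive in the nucleus, was higher, with 132, 134, 146 and 139.9 CPM in KO mice and 105, 100.2, 79.6 and 93.5 CPM in WT mice (0.55 ± 0.10, adjusted p = 0.00167). Gys2 and Gckr kept their calls without each single mouse and Fbp1 lost it without KO mouse 25 (adjusted p = 0.0669). They were the 3 calls among 26 glucose and glycogen genes (median -0.020), beside 5.37% of all tested genes.

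Of 30 amino acid and urea cycle genes, 2 were higher and 1 lower in KO livers (median -0.11), beside 2.60% and 2.77% of all tested genes. Agxt, which detoxifies glyoxylate in peroxisomes, had 282, 196, 248 and 322 CPM in KO mice and 180.1, 161, 154 and 152 CPM in WT mice (0.70 ± 0.16, adjusted p = 0.00654), and Cbs, which commits homocysteine to cysteine, had 756, 574, 700.2 and 797 CPM in KO mice and 487, 439, 557 and 458 CPM in WT mice (0.54 ± 0.13, adjusted p = 0.00912). Both were higher in every KO mouse and kept their calls without each single mouse. Asl, the argininosuccinate lyase of the urea cycle, was lower (-0.57 ± 0.15, adjusted p = 0.0168), with 561 to 687 CPM in KO mice and 816 to 979.6 CPM in WT mice, and lost its call without KO mouse 25 or 30 (adjusted p up to 0.0734). Of 19 genes of NAD metabolism 2 were called, both lower, beside 2.77% of all tested genes. Acmsd, which diverts tryptophan away from NAD, had 5.83, 4.96, 12.1 and 8.80 CPM in KO mice and 17.5, 32.8, 14.8 and 23.3 CPM in WT mice (-1.48 ± 0.35, adjusted p = 0.00947), a call lost without KO mouse 25 or WT mouse 28 (adjusted p up to 0.0539). Nnmt, which methylates nicotinamide, was lower too (-0.75 ± 0.22, adjusted p = 0.0397). It had 113 to 151 CPM in KO mice, against 361 CPM in WT mouse 29 and 158 to 215 CPM in the other WT mice, and was not called without it (-0.44, adjusted p = 0.305). Without 1 mouse Nnmt was called only where WT mouse 27 or 32 was left out. With all 8 mice it passed in 7 of 11 alternative fits, and not with limma-voom and cage as a random block or with body weight as a covariate.

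Of 30 detoxification genes, 3 were higher and 2 lower in KO livers (median 0.061), beside 2.60% and 2.77% of all tested genes, and the 3 rises were not called without WT mouse 29. Cyp2a5, a coumarin hydroxylase of the cytochrome P450 family, had 373, 535, 396 and 431 CPM in KO mice and 1060, 1075, 1146 and 1128 CPM in WT mice, with wide separation (-1.35 ± 0.31, adjusted p = 0.00637). It was also the only call among 12 genes driven through D-boxes (median -0.27), beside 2.77% of all tested genes called lower. The glutathione transferase Gstt2 had 31.3, 36.4, 18.5 and 30.1 CPM in KO mice and 60.2, 57.9, 55.1 and 57.0 CPM in WT mice (-0.98 ± 0.20, adjusted p = 0.00216). The rises were Cyp2c55 (1.80 ± 0.47, adjusted p = 0.0171), Cyp2c37 (0.81 ± 0.25, adjusted p = 0.043) and Gstm1 (0.81 ± 0.25, adjusted p = 0.0478), with adjusted p values of 0.0794, 0.104 and 0.139 without mouse 29. The call was lost without KO mouse 25 or 30 too for Cyp2c55, and held in only 1 of the 8 fits without 1 mouse for Cyp2c37 (without WT mouse 27) and Gstm1 (without KO mouse 26). Cyp2c37 and Gstm1 also lost it with no filter and with body weight as a covariate (adjusted p up to 0.1 and 0.0911). Gstm3 had 254, 123, 365 and 189.9 CPM in KO mice and 78.9, 72.2, 50.3 and 73.0 CPM in WT mice (1.76 ± 0.40, adjusted p = 0.00637) and kept its call without each single mouse. Gstm1, Gstm3 and Gclm, the regulatory subunit of glutathione synthesis (0.26 ± 0.08, adjusted p = 0.0378), were the 3 calls among 23 NRF2 targets (median -0.020), beside 2.60% of all tested genes called higher, and without mouse 29 only Gstm3 was called. Among the 8 fits without 1 mouse, Gclm held its call only without KO mouse 30, KO mouse 31 or WT mouse 32 (adjusted p up to 0.182 in the others). With all 8 mice it passed in 8 of 11 alternative fits, and not with limma-voom and cage as a random block. The Cyp2a, Cyp2c and Gstm families have close paralogs, so reads may be split among their members.

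The largest rises of all were in Cyp3a16 and Cyp3a41b, near-identical P450 genes that female livers express more than male livers. Cyp3a16 had 6.03, 49.7, 2.13 and 90.5 CPM in KO mice and 0.213, 0.180, 0.283 and 0.211 CPM in WT mice, and Cyp3a41b had 1.18, 13.3, 1.98 and 17.6 CPM in KO mice and 0.0609, 0.0, 0.0629 and 0.0604 CPM in WT mice. Every KO mouse was above every WT mouse, and KO mice 26 and 31 were far above KO mice 25 and 30. The log2 fold changes of 7.37 ± 1.75 and 7.43 ± 1.81 (adjusted p = 0.00947 and 0.011) therefore carry wide errors, and reads of these paralogs cannot be cleanly assigned. With limma-voom and cage as a random block neither was called (adjusted p = 0.458 and 0.402). They were the 2 calls among 25 female-biased genes (median 0.83), beside 2.60% of all tested genes called higher. In that list 10 genes were higher at an unadjusted p under 0.05 and 4 were called with DESeq2. With edgeR none of 24 male-biased genes was called (median -0.22; 1 at an unadjusted p under 0.05 and 1 with DESeq2). The rise was not particular to ZT16: the KO mean of Cyp3a16 exceeded the WT mean at all 6 times, with 62.5 CPM at ZT0 in KO livers against 1.48 CPM in WT livers.

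Other large rises (at least 5 CPM in the higher group) were in genes of varied function. Mmp9, a matrix-degrading protease, had 6.06, 6.78, 8.52 and 3.10 CPM in KO mice and 2.10, 1.02, 3.30 and 1.39 CPM in WT mice (1.65 ± 0.38, adjusted p = 0.00824). KO mouse 31 lay within the WT range, set by mouse 29, and the call held without each single mouse. Lpl, lipoprotein lipase, which adult liver normally keeps low, had 118, 90.5, 154 and 82.9 CPM in KO mice and 51.4, 40.2, 40.2 and 45.6 CPM in WT mice (1.33 ± 0.38, adjusted p = 0.0298, and 0.0852 without mouse 29; up to 0.0914 without KO mouse 25, KO mouse 30, WT mouse 28 or WT mouse 32), and its mean difference at the other times was of like size (1.30). Ly6a, a surface antigen known from stem cells and endothelium, was similar, with 46.1, 31.7, 32.6 and 19.2 CPM in KO mice and 15.4, 10.8, 12.0 and 15.2 CPM in WT mice (1.28 ± 0.36, adjusted p = 0.0266, and 0.0806 without mouse 29), and lost its call without KO mouse 25 or WT mouse 28 as well (up to 0.124). Its call was also lost with limma-voom and cage as a random block (adjusted p = 0.0508). Rec8, a cohesin subunit of meiosis, had 7.62, 5.76, 5.40 and 5.91 CPM in KO mice and 2.28, 2.79, 0.974 and 3.53 CPM in WT mice (1.36 ± 0.34, adjusted p = 0.0137, and 0.0747 without mouse 29), and also lost its call without KO mouse 25. Cyp2g1 (1.94 ± 0.45, adjusted p = 0.00802) was lost without KO mouse 26, its highest mouse at 9.13 CPM, at an adjusted p of 0.0525. Adam11 (1.26 ± 0.37) and Mfsd7c (1.26 ± 0.39) overlapped between groups and were called narrowly (adjusted p = 0.0363 and 0.0495), and without mouse 29 the adjusted p was 0.0354 for Adam11 and 0.139 for Mfsd7c. Adam11 held its call in 3 of the 8 fits without 1 mouse (without KO mouse 26, KO mouse 31 or WT mouse 29) and Mfsd7c in 2 (without KO mouse 30 or WT mouse 27). With all 8 mice, Adam11 passed in 8 and Mfsd7c in 7 of 11 alternative fits, neither with limma-voom and cage as a random block nor with body weight as a covariate.

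Of the large falls, Col27a1, a fibril-forming collagen of cartilage, had the smallest p. It had 12.2, 19.2, 25.0 and 10.7 CPM in KO mice and 78.6, 74.1, 35.7 and 80.2 CPM in WT mice, with WT mouse 29 nearest the KO mice (-2.00 ± 0.31, adjusted p = 0.000124, and 7.82e-05 without mouse 29). Clstn3, a calsyntenin, had 5.06, 4.30, 9.85 and 5.16 CPM in KO mice and 23.0, 14, 16 and 19 CPM in WT mice (-1.56 ± 0.32, adjusted p = 0.00323). Both genes had groups apart and kept their calls without each single mouse.

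The falls with the greatest fold were less firm. Cml5 (-2.73 ± 0.70, adjusted p = 0.0159) and its neighbour and paralog Nat8 (-1.93 ± 0.53, adjusted p = 0.0227) are N-acetyltransferase genes that may share reads. Cml5 had 2.44, 1.85, 8.30 and 2.52 CPM in KO mice and 19.7, 30.6, 20.0 and 29.5 CPM in WT mice, and its call was lost without KO mouse 25, 26 or 31 (adjusted p up to 0.0689), that of Nat8 without KO mouse 25, 30 or 31 or WT mouse 28 (up to 0.0877). Atg9b, an autophagy membrane protein, had 0.706, 1.70, 1.42 and 0.401 CPM in KO mice and 1.74, 3.87, 16 and 2.78 CPM in WT mice. Its value in WT mouse 29 carried the fold (-2.53 ± 0.56, adjusted p = 0.006, against -1.40 and 0.136 without that mouse). Chrna4, a nicotinic receptor subunit, was likewise highest in mouse 29, with 1.56 to 5.71 CPM in KO mice, against 28.0 CPM in that mouse and 10.8 to 13.1 CPM in the other WT mice (-2.22 ± 0.64, adjusted p = 0.0306, against -1.79 and 0.133 without it), and lost its call without KO mouse 25, 26 or 31 too.

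Hapln1, a link protein of the extracellular matrix, had 0.294, 0.776, 2.22 and 2.32 CPM in KO mice and 5.60, 7.10, 5.06 and 7.49 CPM in WT mice (-2.17 ± 0.56, adjusted p = 0.0159). The ZT16 difference of Hapln1 was more negative than the mean of the other times by -2.65 (log2, adjusted p = 0.00434). Its ZT16 call was lost without KO mouse 25 or 26 (adjusted p up to 0.0803). Eif4ebp3, an inhibitor of cap-dependent translation, fell as well (-2.06 ± 0.55, adjusted p = 0.0195, and 0.0806 without mouse 29), with the call lost also without KO mouse 25, 26 or 31 (up to 0.0817).

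Of 8 tested genes that are known to follow daily swings in body temperature, 2 were higher in KO livers (median 0.24), beside 2.60% of all tested genes. Cirbp, the cold-inducible RNA binding protein, had 17.9, 14.7, 28.1 and 18.3 CPM in KO mice and 10.7, 10.7, 7.86 and 9.49 CPM in WT mice (1.02 ± 0.26, adjusted p = 0.0152). All KO mice were above all WT mice, and the call was lost without KO mouse 30 or WT mouse 29 (adjusted p = 0.063 without mouse 29 and up to 0.0772). Srsf5, a splicing factor, had 174, 186, 209 and 171 CPM in KO mice and 109, 152, 102 and 114 CPM in WT mice (0.63 ± 0.15, adjusted p = 0.00848) and kept its call without each single mouse. The KO mean was lowest at ZT16 for none of these 8 genes and the WT mean for 4, against 15% and 18.2% of all tested genes. The WT means include mouse 29, and the lowest times were not counted without it.

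Few markers of other cell types passed the test. With edgeR none of 12 Kupffer cell, 9 neutrophil, 10 T and NK cell, 8 B cell, 10 stellate cell, 7 cholangiocyte or 6 erythroid markers tested was called. In these lists 1 T and NK cell marker and 1 B cell marker had an unadjusted p under 0.05, and DESeq2 called 1 T and NK cell marker. Of 10 endothelial markers only Gpr182 was called, beside 2.77% of all tested genes called lower. It had 44.6, 44, 42.6 and 53.1 CPM in KO mice and 63.4, 58.4, 67.2 and 60 CPM in WT mice (-0.43 ± 0.11, adjusted p = 0.0169, and 0.0718 without mouse 29). That call was lost without KO mouse 25 or 30 and with scaling to total counts too. The erythroid markers had a median log2 fold change of -0.95 and all 6 were negative. Of 8 pancreas markers, Cpa1, Pnlip, Prss2, Try4 and Cel were at 0 in all 8 libraries, and Cela2a, at 0.328 to 0.803 CPM in KO mice and 0.0 to 0.272 CPM in WT mice, was called higher (1.91 ± 0.41, adjusted p = 0.00404) at a level of few reads, and not with only the ZT16 libraries (adjusted p = 0.0718). Ckm and Pvalb of muscle and Retn of fat were at 0 in all 8 libraries. Several other lists had no call with edgeR: 22 interferon-induced genes (median -0.023), 14 negative acute phase genes (-0.076), 19 glucocorticoid targets (-0.18, with Mt1 and Mt2 called only without mouse 29), 15 genes of the growth hormone and IGF axis (0.035) and 35 ribosomal protein genes (0.022). At an unadjusted p under 0.05 these lists had 2, 3, 2, 4 and 0 genes, and DESeq2 called 0, 1, 1, 1 and 0.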

How the data were processed

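Liver RNA was sequenced after poly-A selection with an unstranded kit and 13 PCR cycles; per the labels' protocols 2 libraries shared a lane. The deposited values are whole-number counts per gene. Per the submitters' processing notes CASAVA and STAR 2.4.0f1 were used with the mm9 build. The counting tool, gene models and treatment of multiply mapped reads are not given in the sources used here, and the nearly equal totals (33562272 to 34035644 counts in all 48 libraries) show that the libraries had been brought to a common depth by a step that is not described. Overlapping and antisense genes cannot be told apart in unstranded counts.

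From these counts, edgeR 4.0.16 (R 4.3.3) was fitted over all 48 libraries in 12 groups of 4, with filterByExpr (minimum count 10), TMM scaling and the quasi-likelihood test; genes were called at an adjusted p (Benjamini-Hochberg over 14836 genes) under 0.05, and the SE is the log2 fold change divided by the root of the F statistic. CPM are TMM-scaled. The fits were tested on simulated data. Pairs of replicates at ZT16 differed by 33.3 to 171 times the counting variance, so none of the 8 libraries repeats another, and p values rest on the spread between mice. Named genes were all clock and acute phase genes, the 15 largest rises and 15 largest falls with at least 5 CPM, the 10 smallest p for ZT16 against the other times, the 10 largest changes called only with and the 10 only without WT mouse 29, and up to 4 called members of each other list; unnamed predicted genes were skipped and members without a finding are given as counts, and some genes the rule names are not reported here. Pcna, Mki67, Top2a, Cdk1, the remaining chaperones with values and the sensors of the unfolded protein response were added after their values were seen. The members, lists and tests were chosen with earlier results of these data known. Promoter sequences are from RefSeq (GRCm38.p6), matched by symbol; 22 of 25 and 17 of 22 chaperone genes had an entry. Alternatives used other scalings and filters, DESeq2 1.42.0, edgeR robust, limma-voom (limma 3.58.1) with cage as random block, only the ZT16 libraries, body weight as covariate, and fewer mice.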

Additional observations from a re-analysis of the deposited data

Results flagged for a closer look

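For 32 of the 238 sets of 4 mice behind the 119 genes with values, a single mouse lay far from the other 3 of its group, by Dixon's test; chance gives about 1 in 20. Values are CPM. KO mouse 26 was the high one for Dbp (43.5), Gclm (374), Per2 (46.8), Per3 (38.1) and Tfrc (79.7). KO mouse 30 was high for Clstn3 (9.85) and Cml5 (8.3) and low for Mcm2 (4.72). KO mouse 31 was high for Agxt2l1 (128) and Ncbp2 (28.1) and low for Pdia4 (203). WT mouse 28 was low for Cyp3a41b (0) and Timeless (6.77). WT mouse 29 accounted for most of them, being high 16 times and low 3 times, but the 119 genes include the acute phase genes and those named because their call depends on this mouse, so its share was fixed by their choice. It was high for Atg9b (16), Chrna4 (28), Cp (2413), Fga (14650.0), Fgb (11010.0), Fgg (9952), Lbp (339), Lcn2 (943), Map3k14 (9.96), Mt1 (532), Mt2 (523), Orm2 (1028), Saa1 (8151), Saa2 (8770.0), Slc37a1 (12.8) and Socs3 (60.5), and low for Agxt2l1 (41.8), Col27a1 (35.7) and Otud5 (29). What set these mice apart was not tested.

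In 67 of the 119 genes the KO minus WT difference at ZT16 differed from the mean difference of the other 5 times (edgeR, adjusted p under 0.05, against 8.45% of all tested genes), the following values being the gap between them on the log2 scale. This set includes genes named for that contrast. Genes of the clock with a more negative gap were Per2 (-1.71), Cry1 (-1.29), Timeless (-0.87) and Cry2 (-0.58), and with a more positive one Nr1d1 (4.01) and Nr1d2 (1.29). Genes of ER folding and disposal with a more negative gap were Creld2 (-2.17), Derl3 (-2.10), Syvn1 (-1.47), Sdf2l1 (-1.38), Manf (-1.30), Hyou1 (-1.20), Hspa5 (-1.06), Hsp90b1 (-1.02), Pdia4 (-0.92), Dnajb11 (-0.91), Calr (-0.71), Pdia6 (-0.64), Pdia3 (-0.64) and Dnajc3 (-0.62). Heat shock chaperones with a more negative gap were Hsp90aa1 (-1.31), Stip1 (-0.84), Chordc1 (-0.75), Hspa4l (-0.74), Hspe1 (-0.71), Hsp90ab1 (-0.58), Ahsa1 (-0.54) and Hspd1 (-0.44). Replication genes and Tfrc with a more negative gap were Uhrf1 (-2.70), Mcm5 (-2.28), Tfrc (-2.15), Mcm6 (-1.74), Mcm2 (-1.68), Mcm3 (-1.22) and Pcna (-0.60). RNA-handling and other genes named for this contrast with a more negative gap were Odc1 (-1.39), D2Wsu81e (-0.81), Ncbp2 (-0.65) and Hnrnpc (-0.62), and with a more positive one Lrit1 (1.31), Dcaf6 (1.08), Cirbp (1.01), Fgfr2 (0.98), Srsf5 (0.75), Hnrnpl (0.68), Thrap3 (0.63) and Otud5 (0.58). Metabolic genes with a more negative gap were Cyp2a5 (-1.27), Nnmt (-0.96), Asl (-0.68), Gpam (-0.68), Ebp (-0.51) and Cpt2 (-0.35), and with a more positive one Abcg8 (1.53), Agxt (0.82), Cbs (0.70), Abcb11 (0.52) and Hsd3b7 (0.52). The remaining genes with a more negative gap were Atg9b (-3.01), Hapln1 (-2.65), Cml5 (-2.38), Eif4ebp3 (-2.22), Col27a1 (-1.78), Clstn3 (-1.23) and Gpr182 (-0.41), and with a more positive one Cela2a (1.53) and Rec8 (1.45).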

How the results depend on the processing

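With all 8 mice, the counts of called genes were 796 (385 higher, 411 lower in KO livers), and between 568 and 1062 under other scalings, filters and tools (1062 with DESeq2, 568 with no filter). Without KO mice 20, 21, 43 and 44, which stand apart at other times, 1230 were called (614 higher); the cause was not tested. Leaving out each ZT16 mouse in turn gave 306 to 696 genes, 151 to 333 higher and 155 to 366 lower, and 624 to 1195 for ZT16 against the other times. Without WT mouse 29, the 398 calls (196 higher, 202 lower) became 261 with no filter (127 higher, 134 lower), 612 with DESeq2 (335 lower), 644 with only the ZT16 libraries (376 lower), 757 without the 4 KO mice of other times (352 higher, 405 lower), and 143 to 345 when a further mouse was left out (55 to 175 higher, 72 to 170 lower). Leaving out WT mouse 29 turned the sign of Mt1 (2.99; -0.425 to 2.99 over all 8 fits), Mt2 (3.87; -0.706 to 3.87) and Saa2 (0.336; -5.35 to 0.336). No paired analysis was possible because no mouse number is shared between KO and WT mice; at ZT16 a single cage held both genotypes (KO mouse 30 and WT mouse 29), too few mice for values within it, and over all 48 libraries, where cages of other times held both too, the correlation within cages was 0.0806. The body weight difference was -3.42 to -1.75 g without each mouse. The largest, -3.42 g, came without WT mouse 29 (exact permutation test, p = 0.0571), against p = 0.143 to 0.371 without any of the others. Genes with few counts limit the precision.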
